A study of Macaca mulatta with 32 samples.

Results

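ATP9B gave rise to 72 of the 52828 circular RNAs (circRNAs) in the deposited table of rhesus macaque brain. They are all circRNAs to which the table gives the symbol ATP9B (ENSMMUG00000021792), on the plus strand of chromosome 18. The gene was chosen by its large number of circRNAs and of back-splice reads, so both are given as description, with no test. Back-splice reads, which cross the joint of a circle, were counted in 32 libraries from 8 brain regions. They were CA1 and the dentate gyrus (DG) of the hippocampus, the cerebellar cortex (CB), and the cortex of the prefrontal (PFC), occipital (OC), parietal (PC), temporal (TC) and posterior cingulate (PCC) areas. The frozen postmortem tissue came from 8 macaques that were 10 or 20 years old (10 y, 20 y), and the study describes no treatment of them. RNA of 2 animals of the same sex and age was mixed before each library was made, which gave 4 pools (10F, 10M, 20F, 20M, for age and sex). Each pool was sequenced once per region, after depletion of ribosomal RNA and digestion of linear RNA with RNase R, and a library is named by region and pool, as in CB_10F.

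A circRNA forms when the end of a downstream exon is spliced to the start of an upstream exon of the same transcript, which closes a ring that lacks free ends and resists RNase R. A host gene can close several rings from different pairs of exons. ATP9B is a member of the P4-ATPase family, most of whose members move phospholipids from one leaflet of a membrane to the other, and its protein is found at the trans-Golgi network.

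Each ATP9B circRNA is named here by its joined ends. Starts and ends that lay within 200 bases of each other were taken as the borders of 1 block, and the blocks were lettered A to X along the gene. D-I is then the ring in which the end of block I was joined back to the start of block D. The blocks come from the joined ends alone, since no annotation of the build of the table was used, and the circles may hold further exons between them. The table gives 62 of the 72 circRNAs as exonic and 10 as intronic.

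The study designed divergent primers for 1 of the 72, the K-N ring, which joins the end of block N at base 72524151 to the start of block K at base 72503628. They are shown because K-N was the ring whose level set CB apart. Both primers are written 5′ to 3′ and were not placed on a genome here.
K-N forward primer: cgaagtgtaatgaacacatcca
K-N reverse primer: ccctggtaaatgtgccttca

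Depth differed widely between libraries, from 18813 back-splice reads in CB_10F to 894932 in PCC_20F. The deposited TPM values are reads times a constant of each library, from 0.288 TPM per read in CA1_20M to 18.7 in CB_10F, so that a low value in CB_10F rests on very few reads. ATP9B received 289 reads in CB_10F and 10050 in PCC_20F. A value listed at 0 may be a ring that was not called: of 199 ATP9B values at which at least 50 reads were expected from its share over all libraries, 16 (8.04%) were listed at 0, against 11.8% of 20813 such values of all circRNAs. TPM here carries no correction for length, and levels of rings were compared as numbers of joints. Nor did the TPM values of the libraries reach a common sum, which ran from 107695 in DG_20F to 352188 in CB_10F. High and low TPM values of single libraries therefore also carry this difference in scale.

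The ATP9B rings were many, long and very unequal in abundance. The 72 rings held 84239 reads, which is 1.18% of all back-splice reads, and ATP9B ranked 3 of 8180 host genes by number of circRNAs and 2 by reads. The median host gene had 3 circRNAs and 87 reads. The rings used 16 starts and 21 ends in 24 blocks, and 36.0% of the 200 combinations in which the end lies downstream of the start were seen. In 13 blocks both borders were used, and these blocks measured 52 to 174 bases. The median distance between joined ends was 53555 bases, against 6193 bases for exonic circRNAs of the whole table. The shortest ring spanned 174 bases, within block A alone, and the longest, A-S, spanned 199474 bases.

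Block D was the main start and block I the main end. The 13 rings that began at D held 77.0% of the ATP9B reads, and the 4 that ended at I held 59.8%. D-I (chr18:72438949-72465599) alone held 48454 reads or 57.5%. D-J (chr18:72438949-72486949) followed with 8.66% and D-N (chr18:72438949-72524151) with 6.94%. These 3 rings, which share a start and differ in their end, held 73.1% of the reads. The 12 rings that began at A, the most upstream start, held 5.79%. The ring T-U (chr18:72632465-72633735) lay apart near the downstream end of the gene, spanned 1271 bases and held 3.86%. The 10 intronic rings together held 155 reads, or 0.184%.

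**Figure D1:**
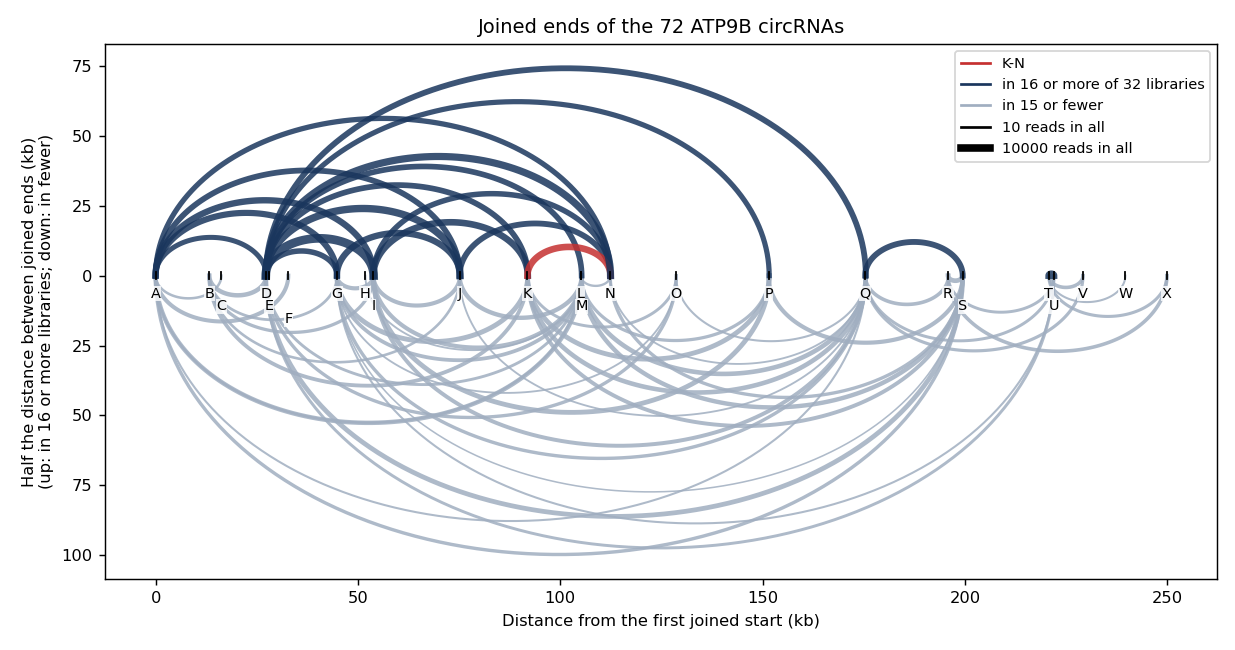
Joined ends of the 72 ATP9B circRNAs against the distance from the first start in kb, with letters for the blocks. Each arc joins a start to an end, its height grows with their distance and its width with the log of its reads. Arcs above the line are the 20 rings found in 16 or more libraries, and arcs below are the other 52. The widest arcs leave block D, and K-N, in red, lies inside D-N.

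Few rings were found throughout. D-I and D-J were above 0 in all 32 libraries, and K-N, T-U and A-I (chr18:72411714-72465599) in 31. In all, 20 rings were above 0 in at least 16 libraries, and these held 96.7% of the ATP9B reads. A further 30 were seen in 2 to 15 libraries and 22 in a single library, and those 22 held 0.345% of the reads. The number of rings found per library ran from 12 to 40, with the highest number in CB_10M. At an equal depth of 289 ATP9B reads, the number of rings expected was 21.8 ± 5.72 in CB (SD, n = 4) against 18.2 ± 3.28 in the other regions (SD, n = 28), a difference within the spread. DG had the lowest mean number at equal depth, 14.4 ± 2.29 (SD, n = 4).

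The leading ring was present in every library. D-I had a mean of 1614 ± 490 TPM (SD, n = 32), with a lowest value of 616 in DG_20F, a median of 1634 and a highest value of 3103 in TC_10M. All circRNAs together summed to 107695 TPM in DG_20F and 298646 in TC_10M, and this difference was not taken out. By region the mean of D-I ran from 1222 ± 305 TPM in PFC to 1998 ± 850 in TC (SD, n = 4 each). Neighbouring regions in this order differed by less than the larger of their SDs, apart from PC, which exceeded PCC by 196 TPM, about the larger SD of 195. D-J had a mean of 249 ± 101 TPM (SD, n = 32), a lowest value of 53.9 in PFC_20M, a median of 238 and a highest value of 477 in CB_20M. Its regional means ran from 159 ± 75.0 TPM in DG to 364 ± 135 in CB (SD, n = 4 each).

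The other frequent rings varied more and were often listed at 0. D-N was listed at 0 in CA1_10M, DG_10M and CB_10F, and elsewhere ran from 50.9 TPM in PFC_20M to 436 in CA1_10F. T-U was listed at 0 in CB_10F, had a median of 75.0 TPM over the 32 libraries and reached 403 in PFC_20F. A-I was listed at 0 in CA1_20M, had a median of 46.7 TPM and reached 225 in CB_10F, from 12 reads. I-K (chr18:72465548-72503708), which starts at the block where D-I ends, was above 0 in 22 libraries only. In PFC it was listed at 0 in PFC_10F, PFC_10M and PFC_20F but stood at 114 TPM, from 226 reads, in PFC_20M. G-J (chr18:72456513-72486949) was above 0 in 24 libraries and was listed at 0 in CA1_20M, where 206.6 reads were expected.

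The remaining 12 of the 20 rings lay at lower levels. A-G had 1393 reads over 29 libraries and a median share of 1.12% of the ATP9B reads, and reached 160 TPM in TC_10M. Q-S (848 reads, 28 libraries) and D-Q (812 reads, 27 libraries) share block Q, as start in the former and as end in the latter. J-N (803 reads), A-J (747 reads), D-K (697 reads), D-M (658 reads), D-G (539 reads) and I-N (522 reads) followed. A-N (377 reads), D-P (340 reads) and A-D (265 reads) were the rarest of the 20. A-J was listed at 0 in all 4 DG libraries, A-N in all 4 CA1 libraries, and D-P in all 8 libraries of CA1 and DG.

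**Figure D2:**
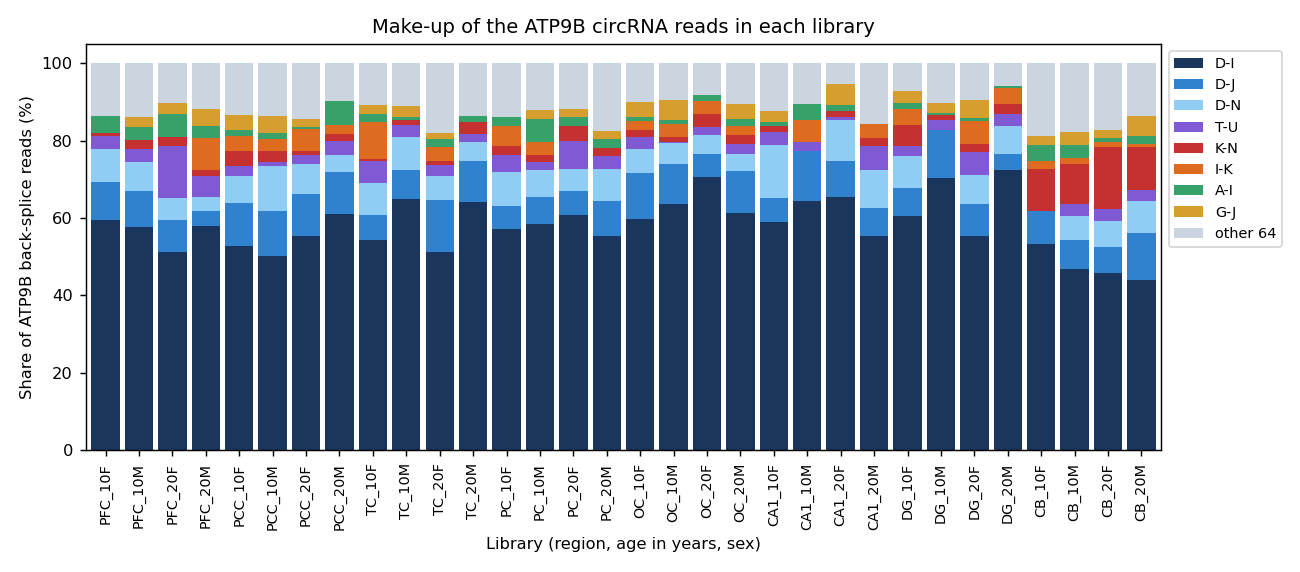
Share of ATP9B back-splice reads (%) taken by the 8 rings with most reads and by the other 64 together, in each of the 32 libraries. D-I takes the largest share in every library, between 43.9% and 72.4%, and the red band of K-N is widest in the 4 CB libraries.

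In CB the K-N ring stood out from every other library. K-N (chr18:72503628-72524151) was at 580 TPM in CB_10F, 430 in CB_10M, 464 in CB_20F and 426.5 in CB_20M. In the other 28 libraries its lowest value was 0 in CA1_10M, its median 52.5 and its highest 150.4 in DG_10F. The 4 CB libraries all lay above the other 28, as they did, in either direction, for 0.375% of the 17050 circRNAs kept by the filter on low values. The mean of 475 ± 72.1 TPM in CB (SD, n = 4) was 8.59 times that of the 28 others, 55.3 ± 35.7 (SD). K-N rose in CB by 3.38 on the scale of log2(TPM + 2.455), with a standard error of 0.897 and an adjusted p of 0.0132 (limma with Benjamini-Hochberg adjustment over 17050 circRNAs). The two-sided exact permutation test over the 32 libraries gave p = 2.78e-05, the smallest it can give. It exchanged libraries freely and did not keep the pairing of regions by pool. Without CB_10F, the library with the fewest reads, the limma difference was 3.26 with an adjusted p of 0.0535, and with a pseudocount of 0.2455 TPM it was 3.57 with an adjusted p of 0.119. The study listed K-N as a CB candidate from these same libraries, so the result is not independent of that choice. It also measured circATP9B by quantitative PCR (RT-qPCR) and reported it as higher in CB than in other brain areas. The PCR values were not used here.

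The height of K-N in CB was seen in each pool. Within pool 10F the CB value was 8.76 times the mean of the other 7 regions, within 10M 10.5 times, within 20F 8.11 times and within 20M 7.50 times. D-I gave no call in CB. Its value there was 1.86, 1.16, 0.864 and 1.12 times the mean of the other regions in the same order of pools, and its difference in CB was 0.33 with a standard error of 0.310 and an adjusted p of 0.856 by limma. Among the other regions K-N had its highest mean in PC, 74.6 ± 32.5 TPM, and its lowest in CA1, 33.3 ± 23.5 (SD, n = 4 each), and these ranges overlapped.

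**Figure D3:**
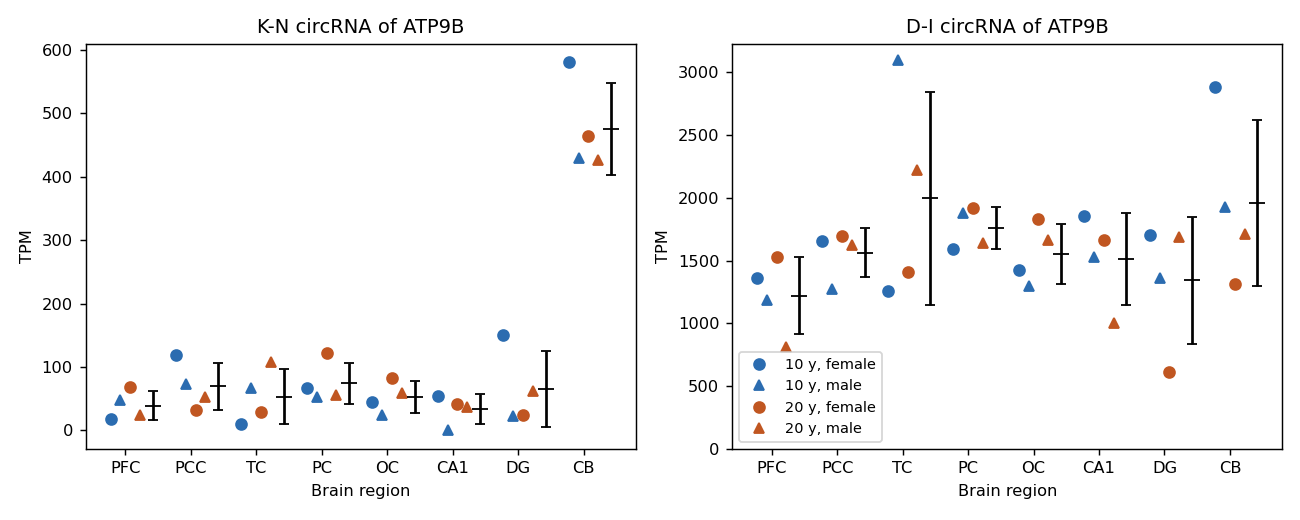
Level in TPM of K-N (left) and D-I (right) in each library by region, with age by colour, sex by symbol and the mean ± SD of 4 libraries as a black bar. The 4 CB libraries of K-N lie between 426.5 and 580 TPM, above all 28 others, whereas the D-I values of CB lie within the range of the other regions.

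K-N also took a larger share of the ATP9B reads in each CB library than in any other library. It took 10.7% of 289 ATP9B reads in CB_10F (95% Wilson interval 7.66 to 14.8%), 10.4% of 2742 in CB_10M (9.34 to 11.6%), 16.1% of 2644 in CB_20F (14.8 to 17.6%) and 10.9% of 1775 in CB_20M (9.56 to 12.5%). The highest share elsewhere was 5.34% of 468 reads in DG_10F (3.64 to 7.77%), so the intervals of the CB_10F and DG_10F libraries overlapped. In CA1_10M, K-N was listed at 0 beside 654 ATP9B reads. The intervals cover counting error only. The groups did not overlap, as was so for 0.121% of the 827 circRNAs above 0 in at least 16 libraries whose host had reads in every library. Per 100 D-I reads, K-N had 25.6 ± 6.68 reads in CB (SD, n = 4, range 20.1 to 35.2), beside 3.49 ± 1.92 in the other regions (SD, n = 28, range 0 to 8.83).

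The share of the leading ring was lower in CB on average. D-I took 47.4 ± 4.08% of the ATP9B reads in CB (SD, n = 4, range 43.9 to 53.3%) and 59.7 ± 5.82% elsewhere (SD, n = 28, range 50.2 to 72.4%), and the ranges overlapped. The 13 rings that start at D took 68.7 ± 3.32% in the CB libraries, beside 79.1 ± 5.20% in the other regions. The 6 rings that end at N took 20.4 ± 4.20% in the CB libraries, beside 10.9 ± 3.32% in the others. In the limma fit to the share of the host reads, 0 of 20 ATP9B rings were called in any region, beside 0% of 2478 circRNAs in CB and at most 0.0807%, in PC, elsewhere. K-N had a log2 difference in share of 2.95 with a standard error of 0.859 and an adjusted p of 0.352, and 2 of 20 rings had an unadjusted p under 0.05 in CB, beside 6.82% of all 2478 circRNAs.

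Of the 43 ATP9B rings kept by the filter, 3 were called higher in CB and 0 lower, against 1.91% higher and 0.557% lower of all 17050 circRNAs. Of these 43, 42 also passed the filter without the CB libraries, and 2 of the 42 (K-N and K-P) were called higher and 0 lower, against 1.39% and 0.579% of 16404 such circRNAs. Apart from K-N they were G-M (chr18:72456513-72517017) and K-P (chr18:72503628-72563364), and K-P shares its start with K-N. G-M was at 56.2 TPM in CB_10F, 4.51 in CB_10M, 3.26 in CB_20F and 17.6 in CB_20M, which stand for 3, 3, 3 and 8 reads. Elsewhere it was found in PFC_10M (5.2 TPM), TC_20M (7.25) and OC_20M (7.55) and was listed at 0 in the rest, so that the groups overlapped. With 28 reads outside CB it passed the filter only through the CB libraries, where it was high, and its values are given as a description. Its difference was 2.38 with a standard error of 0.570 and an adjusted p of 0.00398 by limma. Without CB_10F it was 1.60 with an adjusted p of 0.119, and without pool 10F it was 1.65 with an adjusted p of 0.106.

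K-P was listed at 0 in CB_10F, where a single read stands for 18.7 TPM. It stood at 69.1 TPM in CB_10M, 47.8 in CB_20F and 66.0 in CB_20M. Elsewhere it was above 0 in 10 of 28 libraries, at most at 22.4 TPM in TC_20F. The 3 CB libraries in which it was seen lay above all others. Its difference was 2.83 with a standard error of 0.699 and an adjusted p of 0.00569 by limma. Without CB_10F it was 3.92 with an adjusted p of 0.000380, and K-P was then the single ring of the 43 called in CB. It was not called without pool 10M, 20F or 20M, with adjusted p values of 0.358, 0.163 and 0.176. Together the 5 rings that start at K took 13.9 ± 3.65% of the ATP9B reads in CB (SD, n = 4, range 10.7 to 19.1%) and 2.40 ± 1.16% elsewhere (SD, n = 28, range 0 to 5.34%).

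Several more rings had high values in CB without passing the test. D-M was at 262 TPM in CB_10F (from 14 reads), 101 in CB_10M, 45.6 in CB_20F and 114 in CB_20M, against at most 91.4 elsewhere. It had a difference of 2.84 and an adjusted p of 0.0972 by limma. D-G had a difference of 2.55 and an adjusted p of 0.141, and A-N a difference of 2.25 and an adjusted p of 0.173, both by limma. Both were highest in CB_10F, D-G at 168 TPM from 9 reads and A-N at 262 TPM from 14 reads. Their lowest CB values were 15.4 TPM for D-G in CB_20M and 0 for A-N in CB_20F, within the range of the other regions. Of the 20 rings found in at least 16 libraries, 9 had their highest regional mean in CB, as had 21.7% of the 3150 circRNAs with that many libraries. Over the 42 rings that passed the filter without CB the median difference in CB was 0.29, beside -0.15 over all 16404 such circRNAs. In DG, without whose libraries all 43 passed, it was -0.53, beside -0.25 over 16519. DG_10F, DG_20F and DG_10M had only 43202, 52452 and 53580 back-splice reads. Rare rings are easily listed at 0 at such depth, and the part of depth in the DG difference was not tested.

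**Figure D4:**
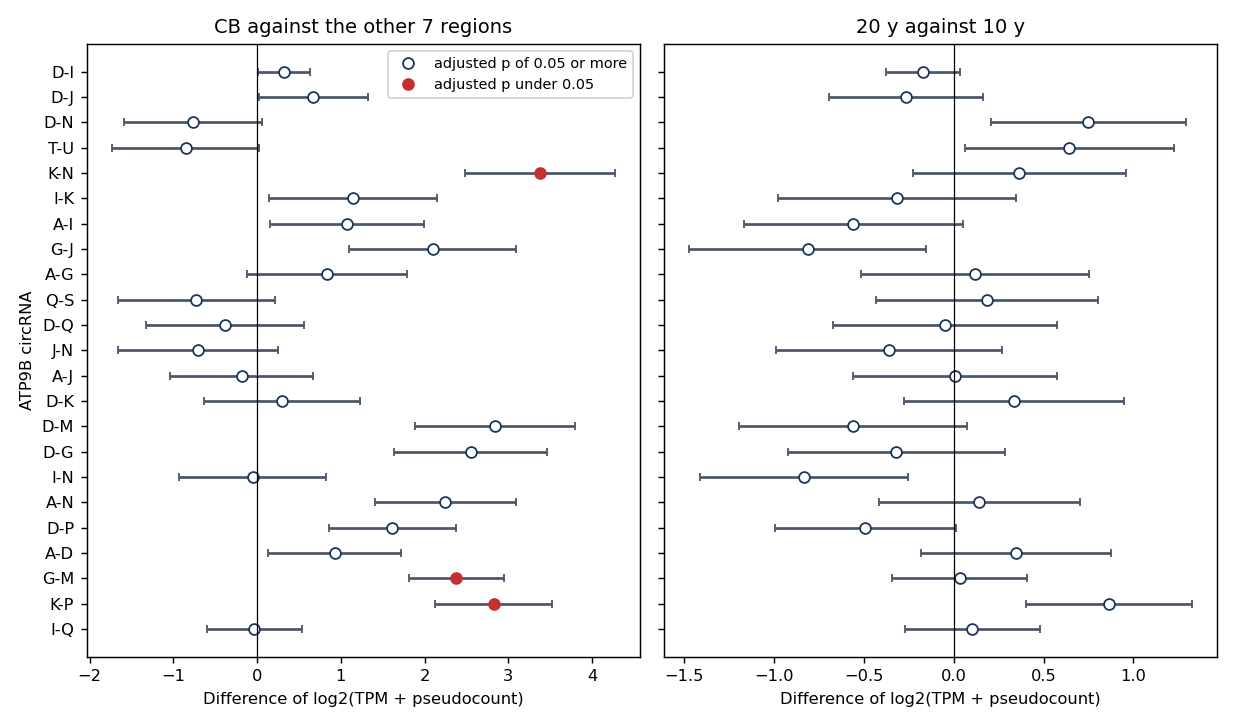
Differences of log2(TPM + pseudocount) with standard errors for the 20 rings found in at least 16 libraries and for G-M, K-P and I-Q, from limma, between CB and the other 7 regions (left) and between 20 y and 10 y (right). Filled points have an adjusted p under 0.05: K-N, G-M and K-P in CB, and none by age.

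The listed cerebellar markers were higher in CB as a group, and their relation to the rings across libraries was not tested. Summed over all circRNAs of the listed granule and Purkinje cell genes, the level was 382 to 899 TPM in CB and 8.35 to 166 TPM elsewhere. Of their kept circRNAs, 10 of 28 were called higher in CB, beside 1.91% of all 17050 circRNAs. The one with the smallest p by limma was a ring of GRM4, a glutamate receptor of granule cells, and PCP2, CBLN1 and ZIC4 had no circRNA in the table. The oligodendrocyte genes summed to 0 to 9.02 TPM in CB and 0 to 91.0 elsewhere, and the astrocyte genes to 0 in all 4 CB libraries and 0 to 34.5 TPM elsewhere. The part of cell make-up in the K-N level was not tested. In these tissue samples, more cells that hold a ring and more copies per cell cannot be told apart.

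Outside CB, 1 further ring was called, in TC, where 0.205% of all circRNAs were called in either direction. I-Q (chr18:72465548-72587246) was at 6.28 TPM in TC_10F, 10.3 in TC_10M, 21.2 in TC_20F and 29.0 in TC_20M, from 4, 2, 18 and 20 reads. It was also found in PCC_10F (16.9 TPM) and CB_20M (6.6), and was listed at 0 in the other 26 libraries. With 15 reads outside TC it passed the filter only through the TC libraries, where it was high, and its values are given as a description. None of the 42 rings that passed without TC was called there. Its difference in TC was 2.62 with a standard error of 0.568 and an adjusted p of 0.0107 by limma. It was not called without pool 10M, 20F or 20M, with adjusted p values of 0.111, 0.181 and 0.0781. No ring was called in PFC, PCC, PC, OC, CA1 or DG, where 0.211%, 0.123%, 0.692%, 0.0235%, 0.188% and 0.176% of all circRNAs were called. The smallest adjusted p among these by limma was 0.128, of T-V in PFC, a ring found in a single library, through which it passed the filter. By the exact permutation test at p under 0.01, 7 rings (G-M among them) passed in CB, beside 3.42% of all circRNAs, 1 (I-Q) in TC, beside 1.05%, and 1 (D-K) in PCC, beside 0.733%.

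Summed over its rings, ATP9B was highest in CB on average, with overlap between regions. The summed level was 4076 ± 1043 TPM in CB, 3330 ± 1081 in TC, 3031 ± 192 in PC, 2850 ± 297 in PCC, 2470 ± 547 in CA1, 2432 ± 294 in OC, 2181 ± 648 in PFC and 2050 ± 719 in DG (SD, n = 4 each). Neighbours in this order differed by less than the larger of their SDs. As reads per 1000 back-splice reads, which does not use the TPM constant, CB had 15.3 ± 0.238 (SD, n = 4, range 14.99 to 15.54) and the others 11.9 ± 2.16 (SD, n = 28, range 7.76 to 16.2). CA1_20F and TC_10M, at 16.23 and 16.02, lay above the CB range, and OC moved from below the mean of all libraries to above it on this scale.

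**Figure D5:**
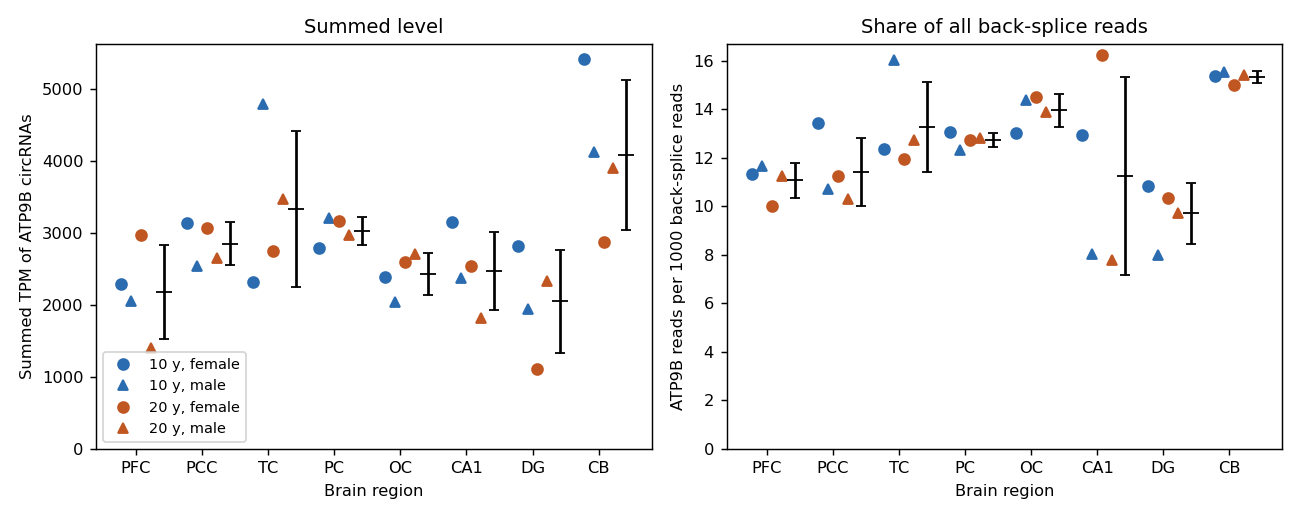
Summed ATP9B circRNA level per library in TPM (left) and as ATP9B reads per 1000 back-splice reads (right) by region, with age by colour, sex by symbol and the mean ± SD of 4 libraries as a black bar. CB has the highest mean on both scales, 4076 TPM and 15.3 reads per 1000, and its 4 libraries lie close together on the second.

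No ATP9B ring was called between 20 y and 10 y. Of 43 rings tested, 0 had an adjusted p under 0.05 by limma, as had 0.00587% of all circRNAs. An unadjusted p under 0.05 was found for 1 of the 43, beside 4.55% of all. With voom, limma's fit to the reads, 0 were called too and 2 had an unadjusted p under 0.05. K-N was at 110 ± 161 TPM at 10 y and 106 ± 136 at 20 y (SD, n = 16 each), with a difference of 0.37, a standard error of 0.593 and an adjusted p of 0.870 by limma. D-I was at 1706 ± 555 TPM at 10 y and 1522 ± 412 at 20 y, and its difference was -0.17 with a standard error of 0.205. Libraries of a pool share animals, and over the 4 pools alone the smallest exact two-sided p is 0.333.

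The age differences of the leading rings were not of a single sign across regions. At 20 y the mean was higher in 6 of 8 regions for T-U, 5 for K-N, 4 for A-I, 3 for D-I and 2 for D-J. K-N in CB had means of 505 TPM at 10 y and 445 at 20 y, with both ages far above the other regions. The median age difference was -0.07 over the 28 rings that passed the filter within each age alone, beside -0.03 over 6828 such circRNAs, and 0 of the 28 were called. The summed level was 2958 ± 1010 TPM at 10 y and 2646 ± 715 at 20 y, or 12.4 ± 2.36 and 12.2 ± 2.35 reads per 1000 (SD, n = 16 each).

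The ring with the smallest p by age was P-S (chr18:72563204-72611187). It was found in 7 libraries, which were all of 20 y: PFC_20F (3.26 TPM), PCC_20F (4.89), TC_20F (38.9), PC_20F (8.99), PC_20M (7.66), OC_20M (2.7) and DG_20M (2.64). All 16 libraries of 10 y listed it at 0, so it passed the filter only through the 20 y libraries, where it was high. Its values and p-values are therefore a description and no test of age. Its difference was 0.83 with a standard error of 0.352, an unadjusted p of 0.0193 and an adjusted p of 0.799 by limma. The permutation test with 100000 draws over libraries gave p = 0.00673, a level under 0.05 that 3.59% of all circRNAs reached. These draws took libraries as independent, although those of a pool share animals. ATP9B reads averaged 2065 at 10 y and 3200 at 20 y per library, and the part of depth in the finding of P-S was not tested.

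By sex, 0 of 43 rings were called by limma, as were 0.0176% of all circRNAs, and 1 had an unadjusted p under 0.05, beside 4.68% of all. That ring was I-N, with a log2 difference of -1.26 for males against females, a standard error of 0.579 and an adjusted p of 0.796. With voom 0 were called too, and 1 had an unadjusted p under 0.05.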

How the data were processed

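The authors trimmed reads with Cutadapt, aligned them to the rhesus macaque genome with BWA in local mode and called circRNAs with CIRI2 from at least 2 head-to-tail junction reads per sample. The genome build is not given in the sources used here. The table deposited by the authors holds TPM values. In each library at least 99.5% of the values above 0 were whole multiples of a constant within 0.0051 TPM, and reads were recovered by dividing by it. No column of the table was left unassigned, and replicates are pools of 2 animals.

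CircRNAs were kept as in the methods of the study, by at least 3 reads in 2 or more libraries of each of 2 or more regions, or of 1 region and in 6 or more libraries in all, or by at least 30 reads in all, which left 17050. limma 3.58.1 with a mean-variance trend (R 4.3.3) was fitted to log2(TPM + 2.455), the pseudocount being the lowest nonzero value of a library at the median of the 32, in all 32 libraries with region, age and sex as factors. Calls had a Benjamini-Hochberg adjusted p under 0.05 over all kept circRNAs. Shares were fitted as log2 of (reads + 0.5) over (other reads of the host + 0.5) for circRNAs above 0 in at least 16 libraries. Described singly were ATP9B circRNAs above 0 in at least 16 libraries, the CB candidate of the study and any that a fit called; P-S and T-V were added after their values were seen. The members, the named rule and the lists (flippases and partners, chromosome neighbours, markers of cerebellar cells, oligodendrocytes and astrocytes) were chosen with earlier results of these data known. Pools pair the libraries across regions, since the libraries of a pool come from the same animals; the correlation within pools that limma estimated was -0.0303.

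The limma fit was tested on simulated data for 17050 circRNAs with 200 changed. The changed ones were drawn from circRNAs above the median in mean reads. Libraries were drawn independently, with no effect of shared animals, and no ring was left uncalled at high reads. The numbers found hold for these settings and not for rarer rings or for 4 pools. In the CB contrast 3 of 200 changed 4-fold and 184 changed 16-fold were found, and in the age contrast 111 and 200. Unchanged circRNAs called in the same runs were 0 and 17 in the CB contrast and 4 and 6 in the age contrast. Alternatives were other pseudocounts (0.2455 and 1 TPM), filters, scalings, voom, a pool block, a correlation within pools, pool means, no covariates, permutation tests, and leaving out pools, regions or the 5 libraries with over 95% clean reads. The fit without CB_10F was added after seeing the data. Permutation tests were run in Python 3.11.15 with NumPy 2.4.6.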

Additional observations from a re-analysis of the deposited data

Results flagged for a closer look

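Of 72 sets of 4 libraries of a region that were examined (the summed level, the number of rings at equal reads, the 5 rings found in at least 31 libraries, and the shares of K-N and D-I), 4 held a library that stood far from the other 3, and chance alone gives about 1 in 20. A-I was at 191.84 TPM in PC_10M, against 68.05 to 69.81 in the other PC libraries. T-U was at 402.61 TPM in PFC_20F, against 64.66 to 74.56 in the other PFC libraries. D-J was at 152.21 TPM in TC_10F, the lowest of its region, where the others had 360.21 to 373.94. K-N took 16.1% of the ATP9B reads in CB_20F, against 10.4 to 10.9% in the other CB libraries.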

How the results depend on the processing

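G-M and I-Q passed the filter only through the region where they were high, so their calls in what follows are a description. With them, the number of rings called in any region was 4. It was 2 with the smaller pseudocount of 0.2455 TPM, 2 with circRNAs above 0 in at least 16 libraries (K-N and D-M), 9 by the exact permutation test at p under 0.01, and 2 to 3 when each pool was left out. In CB the 3 calls became 1 (G-M) with the smaller pseudocount and 1 (K-P) without CB_10F, and 2 to 3 when each pool was left out. By age the 0 calls became 1 by the permutation test, P-S, which passed the filter only through the 20 y libraries in which it was found. The cause was not tested. The mean of the summed level in OC over that of all libraries was 0.868 in TPM and 1.13 as reads per 1000. The pool as a block, which the shared animals allow, left 3 calls in CB and 4 over regions and changed no call. No direction reversed among the results examined where a call had been made; the CB difference of T-U, which was not called, ran from -1.65 to 0.61. K-N differed by 3.11 to 3.57 in CB over its 15 alternatives, with an adjusted p of 0.00214 to 0.119, and passed in 12. It did not pass with the smaller pseudocount (0.119), over all circRNAs of the table (0.0631) or without CB_10F (0.0535). G-M passed in 12 of 14 alternatives, K-P in 9 of 14 and I-Q in 10 of 14, where voom gave I-Q an adjusted p of 0.277. A 4-fold change between CB and the other regions was seldom found in simulated data, so that rings not called in CB may differ by that much.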

Other observations

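Other circRNAs were set beside those of ATP9B in a pair of ways. Over the 32 libraries, the host genes whose summed log2 level ran most like that of ATP9B, among the 279 hosts above 0 in all libraries, were KMT2C (Pearson r = 0.738), HECTD4 (0.729), ZNF532 (0.719), KIAA0802 (0.698) and OGDH (0.695), and the median host had r = 0.346. All points share the TPM constant of their library, and the r values are given as a description.

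Of the 22 listed genes of the flippase family and its partners, 15 had circRNAs in the table, 168 in all. ATP9A, the closest relative of ATP9B, had 33 circRNAs and 6209 reads, ATP8A2 had 47 and 3804, and ATP8A1 had 35 and 1183. Of their 50 kept circRNAs, 1 was called higher in CB and 0 lower, beside 1.91% and 0.557% of all 17050 circRNAs. Their median difference in CB was -0.10, beside -0.14 over all. The called ring was of ATP8A2 (chr17:5860717-5867766), at 371 ± 213 TPM in CB (SD, n = 4) and 37.2 ± 34.1 elsewhere (SD, n = 28). Its difference was 3.99, with a standard error of 0.968 and an adjusted p of 0.00462 by limma. By age 0 of the 50 were called, beside 0.00587% of all, with a median difference of 0.00 beside 0.08 over all. Of the genes beside ATP9B on the chromosome, 6 of 14 listed had circRNAs in the table, and 0 of their 13 kept circRNAs were called in CB or by age, with medians of -0.17 and 0.18. Among the marker lists, 0 of 4 kept oligodendrocyte circRNAs and 0 of 4 kept astrocyte circRNAs were called in CB, and none of the 3 marker lists had a call by age. The shares of all circRNAs called, for these lists and the neighbours, are those given above for CB and for age.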
